A study of Capra hircus with 4 samples.

Results

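The slow fibre contractile genes are the sarcomere genes that give slow, oxidative muscle fibres their myosin, troponin and tropomyosin. The list held 9 genes, and members were the unigenes (clusters of assembled transcripts) that the deposited goat table pairs with one of these names. Of the 9 genes, 8 were found, as 23 of 59774 unigenes. These were MYH7B, MYL2, MYL3, TNNT1, TNNI1, TNNC1, TPM3 and MYOZ2, out of 11208 named goat genes. The slow myosin heavy chain MYH7 was not named in that table, and the unigenes that resemble it are described separately.

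RNA was sequenced from the longissimus dorsi muscle of 2-month-old Cashmere goats. A single control library (1 sample) stood against 3 libraries of treated goats, which received the β2-agonist feed additive ractopamine by mouth at 1 mg/kg body weight on 28 dosing days, with 21 withdrawal days after them. The labels number the treated libraries 1, 2 and 3 and give no day for any of them. By the study's methods, sequencing covered a late dosing day, an early withdrawal day and the last withdrawal day, while the series' design text calls the treated samples replicates. Which library comes from which day was not worked out here, so in any spread over the 3 treated libraries sampling day and variation between samples cannot be told apart. Each treated library was therefore set beside the same single control library, so the 3 ratios to control are not independent.

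Skeletal muscle is a mixture of fibre types, and each type assembles its sarcomere from its own set of closely related proteins. Slow fibres use MYH7 with the light chains MYL2 and MYL3 and the slow troponins TNNT1, TNNI1 and TNNC1. Fast fibres use other myosin heavy chains with MYLPF and MYL1 and the fast troponins TNNT3, TNNI2 and TNNC2. Longissimus muscle holds both kinds, and β2-agonists are known for shifting muscle toward the fast set.

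The libraries differed in composition. They held 6675218 to 8533046 expected counts, but the counts on unigenes paired with a named goat gene (goat-named counts below) made up 71.3% of the control library, 50.1% of treated 1, 1.82% of treated 2 and 40.4% of treated 3. Mitochondrial unigenes took 23.3% of the control and 41.1%, 89.4% and 54.4% of the treated libraries. Treated 2 thus held 133809 goat-named counts, and 3 counts, the limit that a count of 0 allows, were 22.4 CPM there against 0.493 CPM in the control (CPM being counts per 1000000 goat-named counts throughout). Of 6 skeletal muscle markers 4 were found. DES (desmin) stood at 12691 to 14610 CPM and CKM (muscle creatine kinase) at 36464 to 82090 CPM, while MYF6 had treated to control ratios of 2.05, 0.190 and 0.380 in treated 1, 2 and 3. The unigene named ACTA1 had 130 counts in the control and 6, 0 and 3 in the treated libraries. Under the smooth muscle actin name ACTA2 there were 238187 counts in the control and 98680, 4245 and 149447 in the treated libraries. The other smooth muscle markers MYH11, TAGLN and CNN1 had 113, 211 and 10 counts in the control. Which actin the ACTA2 counts come from was not tested, so the ACTA1 counts are no measure of skeletal actin. Of 7 heart markers only TNNT2 was found, at 5 counts or fewer. Fibroblast markers (3 of 4 found) summed to 114 CPM in the control, 168 in treated 1, 2220 in treated 2 and 270 in treated 3, and adipocyte markers (2 of 4 found) to 13.3, 102, 777 and 25.2. Their part in the values below was not tested. In whole muscle, fewer slow fibres and less RNA per slow fibre cannot be told apart.

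Sequence comparisons bear on which counts belong to slow fibre genes, and they are shown first. The unigene c8045_g1 was paired with TNNC1, the calcium sensor of slow fibres, at 71% protein identity, but its Swiss-Prot match is fast troponin C (TNNC2). Below, 96 bases of the TNNC1 unigene c7498_g1 (bases 4 to 99, printed as the reverse complement) stand above the matching bases 218 to 313 of c8045_g1, with the differing bases in capitals.
TNNC1 unigene c7498_g1: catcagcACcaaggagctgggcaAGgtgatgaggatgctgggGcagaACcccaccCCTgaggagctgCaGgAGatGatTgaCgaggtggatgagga
fast troponin C unigene c8045_g1: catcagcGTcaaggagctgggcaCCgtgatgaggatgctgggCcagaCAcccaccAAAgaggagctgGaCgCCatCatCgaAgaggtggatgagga
They differed at 17 of 96 bases (82.3% identity), and the other unigenes paired with TNNC1, c7498_g1 and c7498_g2, matched goat TNNC1 at 100% protein identity. No separate TNNC2 sequence was set beside c8045_g1, so its name as fast troponin C rests on the Swiss-Prot match. The genome build of the authors' goat table is not given in the sources used here, so no genome position is given for any unigene.

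The second comparison concerns c13776_g1, which held more counts than any other unigene paired with MYH2, MYH4, MYH7B or LOC102181869. It was paired with the fast myosin MYH4 at 83% identity, while its Swiss-Prot match is MYH7. Bases 39 to 194 are given with the matching 156 bases of c8673_g1, which matches slow myosin, and of c8311_g1, which is paired with the fast myosin MYH2. Capitals mark bases that differ from c13776_g1.
c13776_g1: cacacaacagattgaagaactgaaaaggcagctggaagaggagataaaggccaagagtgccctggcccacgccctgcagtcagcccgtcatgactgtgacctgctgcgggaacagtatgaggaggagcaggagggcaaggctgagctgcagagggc
slow myosin unigene c8673_g1: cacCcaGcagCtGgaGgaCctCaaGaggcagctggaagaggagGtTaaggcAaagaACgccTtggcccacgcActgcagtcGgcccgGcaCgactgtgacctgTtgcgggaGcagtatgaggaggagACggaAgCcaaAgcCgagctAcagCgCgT
MYH2 unigene c8311_g1: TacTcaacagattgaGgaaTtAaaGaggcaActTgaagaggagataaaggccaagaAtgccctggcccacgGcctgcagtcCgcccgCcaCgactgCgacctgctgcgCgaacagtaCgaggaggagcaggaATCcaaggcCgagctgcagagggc
In this stretch c13776_g1 was 80.8% identical to the slow unigene and 87.2% identical to the fast one. This stretch and its Swiss-Prot match therefore pointed to different fibre types. It entered none of the slow to fast ratios below, and the list of fast genes, which names it as MYH4, is given with and without it.

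Summed over the 8 members as the goat table names them, the slow fibre genes held between 0.851 and 1.35 times their control share of the goat-named counts in the treated libraries. The sum was 201667 counts in the control, 178011 in treated 1, 3772 in treated 2 and 92116 in treated 3. This was 3.31% of the goat-named counts in the control against 4.46%, 2.82% and 3.41% in treated 1, 2 and 3. The ratio to the control share was 1.35 in treated 1 (95% interval 1.34 to 1.35), 0.851 in treated 2 (0.824 to 0.879) and 1.03 in treated 3 (1.02 to 1.04). All intervals on ratios here are exact Clopper-Pearson intervals, and they cover counting error only, with no replicate of the control behind them. Relative to all counts the sum was 2.36% in the control and 2.24%, 0.0514% and 1.38% in the treated libraries, where the mitochondrial unigenes took their larger part. The 3 treated libraries differed among themselves, with treated 1 at 1.58 times the goat-named share of treated 2 and 1.31 times that of treated 3.

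That sum was made of parts that lay on opposite sides of the control. The fast troponin C unigene c8045_g1 supplied 28.4% of the members' counts in the control and 58.5%, 66.1% and 63.1% in treated 1, 2 and 3. Its own share was 2.78, 1.98 and 2.29 times that of the control in treated 1, 2 and 3. Without it, the remaining 22 unigenes summed to 2.37% of goat-named counts in the control and to 1.85%, 0.955% and 1.26% in the treated libraries, ratios of 0.781, 0.402 and 0.531. All 3 treated libraries then lay below the control, but the median goat gene also did, at 0.778, 0.796 and 0.738. In treated 1 the sum was thus next to the median gene, and only in treated 2 and 3 was it under it. This split was made after the annotation of c8045_g1 had been seen, and the identity minimum of 90%, which also removes c8045_g1, gave ratios of 0.776, 0.401 and 0.531.

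**Figure D1:**
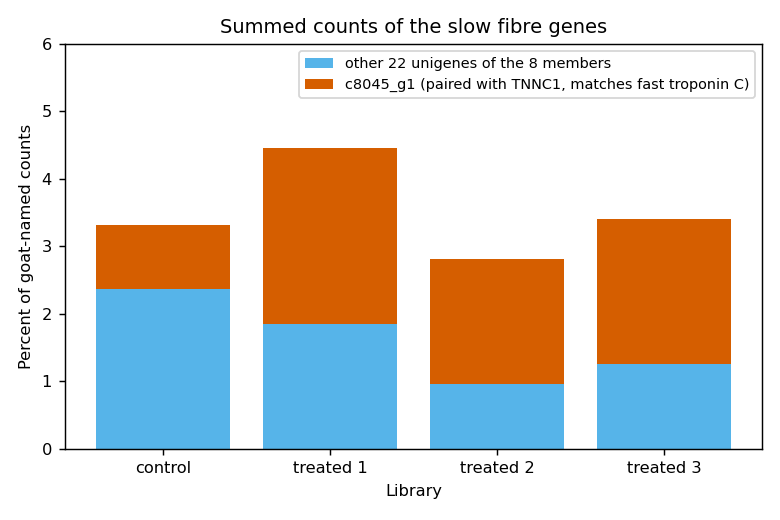
Summed counts of the 8 slow fibre genes as a percentage of goat-named counts in each library (bars), split into c8045_g1 and the other 22 unigenes. The whole bar is 3.31% in the control and 2.82% to 4.46% in the treated libraries, while the part without c8045_g1 is 2.37% in the control and 0.955% to 1.85% in the treated libraries.

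Before the members are taken one by one, the background has to be given. The median goat gene with a mean of at least 20 counts (6340 genes) had a log2 ratio to control of -0.36 in treated 1, -0.33 in treated 2 and -0.44 in treated 3 on the scale of goat-named shares. The members' median was -0.10, -1.77 and -0.94, and 3, 6 and 6 of the 8 members lay below the median gene. With the limits of 0.6 and 3 that the study set for lower and higher expression, 2, 5 and 5 members were below 0.6 in treated 1, 2 and 3, against 34.7%, 38.8% and 35.8% of all goat genes. Only 1 member was above 3, MYH7B in treated 1, against 4.27%, 10.2% and 1.81% of all goat genes in the respective libraries. Below 0.6 in all 3 treated libraries were 2 members, MYL2 and MYL3, against 15.5% of all goat genes, and no member was above 3 in all 3, against 0.741%.

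MYL2 and MYL3 are the regulatory and essential light chains of the slow myosin motor, shared with the heart ventricle. MYL2 stood at 8303 CPM in the control and at 2205, 1846 and 1797 in treated 1, 2 and 3. Its 3 treated values lay close together and all far under the control value. The ratios were 0.266 (0.260 to 0.272), 0.222 (0.195 to 0.252) and 0.216 (0.210 to 0.223). MYL3 had 1193 counts in the control and 23, 7 and 38 counts in the treated libraries, which is 196 CPM against 5.76, 52.3 and 14.1. It was the member with the lowest ratios in treated 1 and 3, at 0.0294 (0.0186 to 0.0443) and 0.0719 (0.0506 to 0.0992). In treated 2 the ratio was 0.267 (0.107 to 0.552), on 7 counts. On the scale of all counts both light chains were below 0.6 too. This adds no support, because goat-named counts were a smaller part of every treated library than of the control.

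The 3 slow troponins did not move as one. TNNT1, which ties troponin to tropomyosin in slow fibres, was the steadiest member, with 6279 CPM in the control and 6990, 4970 and 5600 in treated 1, 2 and 3. Its ratios of 1.11, 0.792 and 0.892 lay above that of the median goat gene in treated 1 and 3 and next to it in treated 2 (median ratios 0.778, 0.796 and 0.738). TNNI1, the slow inhibitory subunit, stood at 2364 CPM in the control and at 1753, 254 and 1311 in the treated libraries. Its ratio was 0.742 in treated 1 and 0.554 in treated 3, but 0.107 (0.0744 to 0.150) in treated 2, where it rested on 34 counts.

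TNNC1 as the table names it was higher than the control in all 3 treated libraries, with 13106 CPM in the control and 30562, 20215 and 24039 in treated 1, 2 and 3. Between 71.7% and 92.2% of those counts were on the fast troponin C unigene shown above. The other TNNC1 unigenes together stood at 3712 CPM in the control and at 4490, 1577 and 2503 in the treated libraries, so their ratio was 1.21 in treated 1, 0.425 in treated 2 and 0.674 in treated 3. These unigenes also disagreed with each other. The shorter, c7498_g1, gave ratios of 0.401, 0.215 and 0.413, while c7498_g2 gave 1.70, 0.551 and 0.831. Thus the direction of TNNC1 in treated 1 depended on which of its unigenes was read.

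TPM3, the tropomyosin of slow fibres, which non-muscle cells also express, stood at 2175 CPM in the control and at 1702, 590 and 1072 in the treated libraries. All 3 treated values were under the control, with ratios of 0.782, 0.271 and 0.493. Its 8722-base unigene c9807_g2 gave 0.970, 0.315 and 0.537, and the shorter c9807_g1 gave 0.296, 0.170 and 0.404. MYOZ2, a Z-disc protein of slow fibres that binds calcineurin, had 608 CPM in the control and 804, 179 and 243 in the treated libraries. It lay above the control in treated 1 (ratio 1.32, 1.26 to 1.39) and below it in treated 2 (0.295, 0.189 to 0.440) and treated 3 (0.400, 0.368 to 0.435).

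**Figure D2:**
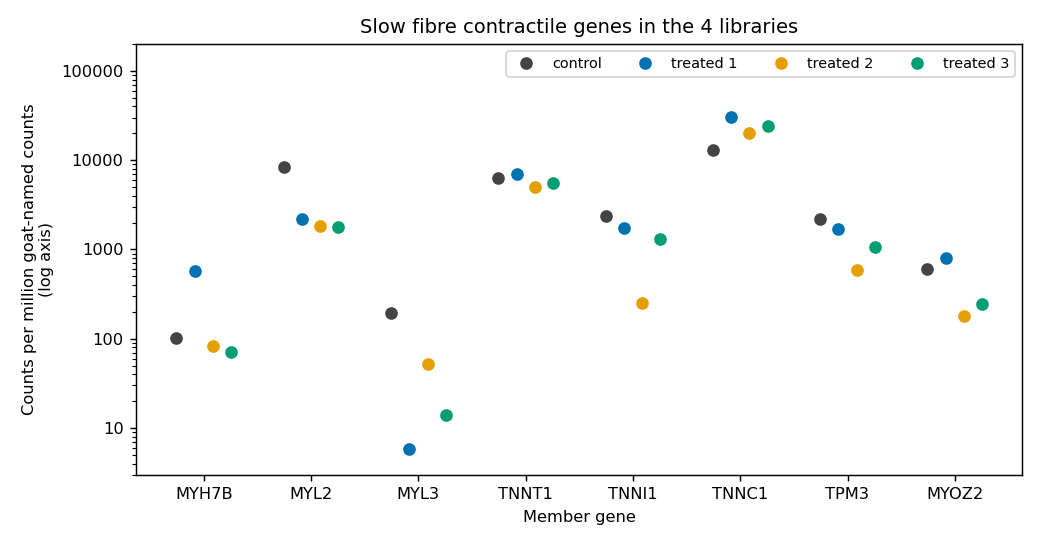
CPM, the counts per 1000000 goat-named counts (log axis), of each of the 8 members in the control and the 3 treated libraries, 1 point per library. MYL2 and MYL3 are lower in every treated library than in the control, TNNT1 stays between 4970 and 6990, and the TNNC1 points include the fast troponin C unigene.

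Divided by summed unigene length, the levels in the control formed a high and a low set. MYL2 led with 10537 CPM per kb, followed by TNNC1 without c8045_g1 at 5206, TNNI1 at 4097 and TNNT1 at 3547. MYOZ2 at 393, MYL3 at 169, TPM3 at 164 and MYH7B at 10.3 made up the low set, and MYL3 (Poisson interval 159 to 178) and TPM3 (161 to 167) did not differ beyond counting error. In treated 1 the order changed to TNNC1 without c8045_g1 at 6298, TNNT1 at 3949, TNNI1 at 3038 and MYL2 at 2798, with MYL3 last at 4.96. MYL2 and TNNI1 in treated 3 did not differ beyond counting error, at 2281 (2217 to 2346) and 2272 (2197 to 2348). The long unigenes of TPM3 and MYH7B lower their values on this scale. So does a 236-base MYL3 unigene with 0 counts in every library, and the likeness of MYL3 and TPM3 depends on counting its length.

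MYH7B, a slow-type myosin heavy chain that is present at low levels in muscle, was the only member above 3. It had 629 counts in the control and 2317, 11 and 193 in treated 1, 2 and 3, or 103 CPM against 581, 82.2 and 71.5. Only treated 1 stood above the control, with a ratio of 5.62 (5.14 to 6.14), while treated 2 gave 0.795 (0.395 to 1.43) and treated 3 gave 0.692 (0.586 to 0.815). Its 9 unigenes covered different stretches of the transcript, and they did not give one ratio. Placed along the transcript by their protein-level match to the non-muscle myosin MYH9, 7 of them could be put in order from the 5′ to the 3′ end. The ratios in treated 1 in that order were 0.366, 0.901, 2.90, 4.72, 5.19, 6.63 and 12.4. The first unigene was thus lower than in the control and the last higher, with every step between them upward. In treated 3 the first unigene had 0 counts against 50 in the control (upper limit of the ratio 0.173). The later ones gave 0.256, 0.251, 0.707, 0.591, 0.767 and 2.11, so not every step was upward there. The unigenes that could not be placed, c11796_g1 and c11796_g2, matched MYH7B at only 59% and 82% protein identity. Their ratios in treated 1, 12.8 and 18.5, were the highest of the 9, and they are part of the 5.62.

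The unigenes that match slow myosin heavy chain showed the same order at much lower ratios. The table pairs 8 of them with LOC102181869, a goat gene without a symbol there, and 7 had Swiss-Prot matches to MYH7 or MYH6 with enough counts to follow (the eighth had 1 count). Together they held 73492 counts in the control and 4189, 99 and 6013 in treated 1, 2 and 3. That is 12075 CPM against 1050, 740 and 2229, or ratios of 0.0869, 0.0613 and 0.185. From the 5′ to the 3′ end the ratios in treated 1 were 0.0141, 0.0197, 0.0398, 0.0649, 0.110, 0.147 and 0.209. In treated 3 they were 0.0614, 0.0852, 0.122, 0.178, 0.223, 0.260 and 0.347. The 7 unigenes had between 1 and 58 counts in treated 2, and their ratios there followed no such order.

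The fast myosin MYH2, read the same way, also had higher ratios toward its 3′ end in both libraries. Its 4 unigenes gave ratios of 0.0363, 0.0909, 0.166 and 0.356 in treated 1 and of 0.290, 0.589, 0.748 and 1.53 in treated 3. Each was then set beside the slow myosin unigene nearest to it along the transcript. The slow to fast ratio relative to the control was 0.542 (0.319 to 0.991), 0.438 (0.301 to 0.650), 0.392 (0.274 to 0.573) and 0.586 (0.486 to 0.709) in treated 1, from the 5′ pair to the 3′ pair. In treated 3 the same pairs gave 0.294, 0.207, 0.238 and 0.226. At the nearest positions available, slow myosin was thus lower against MYH2 than in the control in both libraries, without an order along the transcript. The paired positions were not equal. Counted in approximate bases toward the 3′ end, slow and fast lay at -1245 and -1179, 52 and 2, 364 and 632, and 2163 and 2562. In all pairs but the second the MYH2 unigene lay nearer the 3′ end, where ratios were higher. The part of this offset in the slow to fast ratios was not tested. Slow myosin added to the members without c8045_g1 gave summed ratios of 0.547, 0.287 and 0.414.

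**Figure D3:**
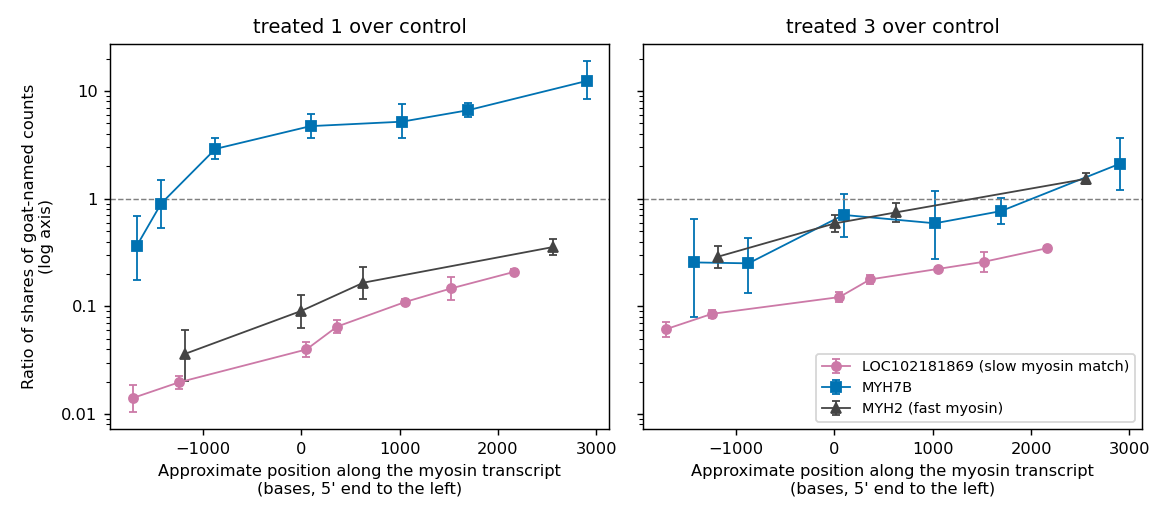
Ratio of goat-named shares, treated over control (log axis), of single myosin unigenes against their approximate position along the transcript, for treated 1 (left) and treated 3 (right). Bars are exact 95% intervals for counting error, the dashed line is a ratio of 1, and unigenes with 0 counts are not drawn. In treated 1 the points of all 3 genes go up from left to right, from 0.0141 to 0.209 for slow myosin, 0.366 to 12.4 for MYH7B and 0.0363 to 0.356 for MYH2.

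The unassigned unigene c13776_g1 held more counts than the whole of slow myosin, with 140550 in the control and 193165, 929 and 120846 in the treated libraries. Its share was 2.10 times the control in treated 1, 0.301 in treated 2 and 1.94 in treated 3. Its 3 transcripts differed, and the 848-base one gave 3.40, 0.135 and 3.44 where the 2026-base one gave 1.23, 0.276 and 0.886. How the table pairs it therefore changes the balance of slow to fast myosin.

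A ratio of slow to fast genes inside a library does not depend on the library's total. By name, 4 slow members had a fast counterpart in the table. TNNT1 had 0.597 counts for each count of TNNT3 in the control and 0.247, 0.236 and 0.170 in treated 1, 2 and 3, which is 2.42, 2.53 and 3.51 times lower. MYL3 over MYL1 was 0.0679 in the control and 0.000632, 0.0117 and 0.00143 in the treated libraries, and TPM3 over TPM1 was 0.222 against 0.123, 0.124 and 0.0550. These 3 ratios were lower in every treated library. MYOZ2 over MYOZ1 was not, at 0.210 in the control and 0.452, 0.152 and 0.101 in the treated libraries. The tropomyosins are unlike in length, with 13.3 kb of TPM3 unigenes against 1294 bases for the main TPM1 unigene. Ratios differed by length over all goat genes (below), and the part of length in TPM3 over TPM1 was not tested. Summed over the 4 pairs, the slow to fast ratio was 0.355 in the control and 0.179, 0.184 and 0.107 in the treated libraries, a mean log2 difference of -1.22 ± 0.44 (SD of the 3 treated libraries). The exact two-sided permutation test over the libraries gave p = 0.250, the smallest that 1 library against 3 can give.

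The other fast counterparts TNNI2, TNNC2 and MYLPF carried no such name in the table, and their unigenes were taken by Swiss-Prot match after the annotation had been seen. In the goat table the TNNI2 unigene was paired with LOC100860775 at 59% protein identity and the MYLPF unigene with LOC100861163 at 100%. The TNNC2 unigene is c8045_g1, paired with TNNC1 at 71%. Their names as fast genes rest on the Swiss-Prot match. TNNI1 over TNNI2 was 0.383 in the control and 0.125, 0.0127 and 0.0768 in treated 1, 2 and 3. TNNC1 over TNNC2 was 0.395 against 0.172, 0.0846 and 0.116 once c8045_g1 was counted as TNNC2. MYL2 over MYLPF was 0.756 against 0.0882, 0.0984 and 0.0757, the most even of the pairs, at 8.57, 7.69 and 10.00 times lower. Over 7 pairs the summed ratio was 0.449 in the control and 0.152, 0.107 and 0.0987 in the treated libraries (mean log2 difference -1.94 ± 0.33, SD, n = 3, exact permutation p = 0.250). The fast side of these sums was higher than the control in every treated library. The 7 fast genes together made up 5.26% of goat-named counts in the control and 11.8%, 8.88% and 12.7% in treated 1, 2 and 3, and the 4 fast genes found by name 2.61% against 5.30%, 3.15% and 6.47%. MYOZ1 went the other way, at 0.615, 0.408 and 0.831 times the control, as did TPM1 in treated 2 (0.488). The TNNI2, TNNC2 and MYLPF unigenes are 861, 757 and 754 bases long. All goat genes under 1 kb had median log2 ratios of 0.54, 0.59 and 0.51 (below). The part of length in the fast sums was not tested. The longest identical run between a slow unigene and the fast unigene it was set against was 10 to 24 bases.

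**Figure D4:**
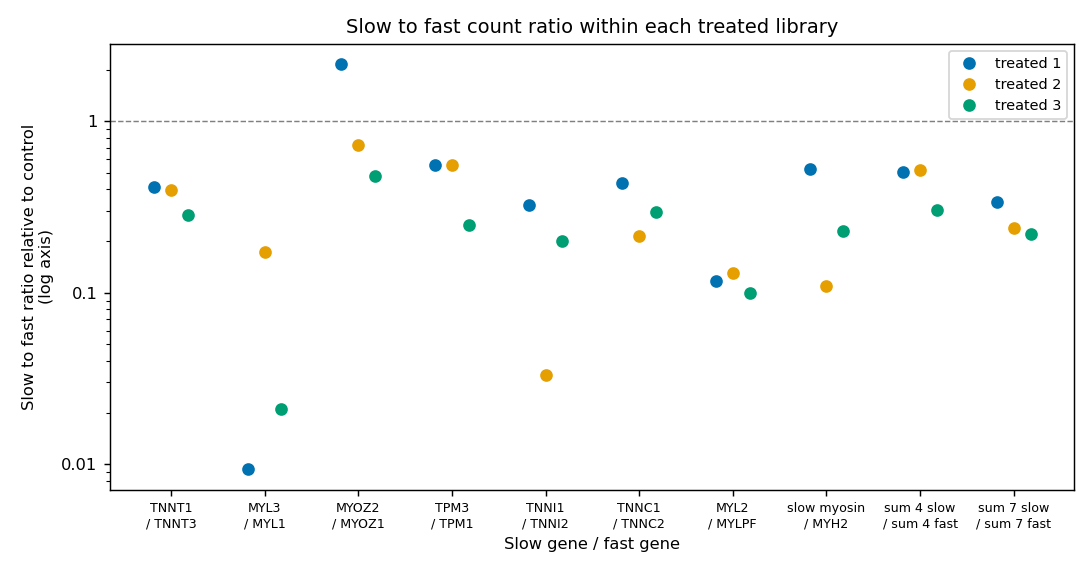
Slow to fast count ratio of each gene pair in each treated library, divided by the same ratio in the control library (log axis, 1 point per treated library, dashed line at 1). All points lie below 1 except MYOZ2 over MYOZ1 in treated 1, at 2.15, and the sums over 4 and 7 pairs lie between 0.220 and 0.518.

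Further genes that slow fibres favour were read on the same scale. Of 15 such slow fibre-linked genes (calcium pumps, Z-disc and titin-binding proteins, oxygen carriers), 12 were found. Below 0.6 were 6, 11 and 8 of them in treated 1, 2 and 3, against 34.7%, 38.8% and 35.8% of all goat genes. None was above 3, against 4.27%, 10.2% and 1.81% of all goat genes. The median log2 ratio of the 12 slow fibre-linked genes was -0.54, -3.32 and -1.46, beside -0.36, -0.33 and -0.44 for all goat genes. In treated 2 it was -2.83 with CASQ2, at 0 counts there, set to its bound. ATP2A2, the calcium pump of slow fibres, stood at 3112 CPM in the control and at 849, 194 and 456 in the treated libraries. In treated 1 PLN (2.28), CA3 (1.39) and myoglobin (MB, 1.38) were above the control. The exception in treated 2 was TPM2, the β-tropomyosin that fast and slow fibres share, with a ratio of 1.28. In treated 3 the genes not below 0.6 were MB (1.63), TPM2 (1.16), CA3 (0.869) and PLN (0.760).

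Of 12 fast genes 8 were found, with median log2 ratios of 0.13, -1.16 and 0.44. One of them, MYH4, is only the unassigned c13776_g1, and without it the medians over 7 genes were -0.25, -1.03 and -0.07. Below 0.6 in treated 1 were MYH2 (0.165) and MYBPC2 (0.473), and MYL1 was above 3 (3.16). In treated 3 none was below 0.6, while MYL1 (3.42) and TNNT3 (3.13) were above 3. In treated 2, 6 of the 8 fast genes were below 0.6 (5 of 7 without MYH4), while TNNT3 (2.00) and MYL1 (1.55) were above the control. Of all goat genes 34.7%, 38.8% and 35.8% were below 0.6 in treated 1, 2 and 3, and 4.27%, 10.2% and 1.81% were above 3. Of 24 regulators of fibre type (calcineurin and MEF2 signalling, PGC-1 coactivators, homeobox and SOX factors) 21 were found and 16 had a mean of 20 counts. Of these 16, 7, 11 and 7 were below 0.6, beside the same shares of all goat genes. Their medians were -0.49, -1.20 and -0.59 (-0.74 in treated 2 with 3 genes at 0 counts set to their bounds), beside -0.36, -0.33 and -0.44 for all goat genes. The regulators above 3 were both in treated 1: RCAN1, a calcineurin inhibitor, at 13.2 and TRIM63, a muscle ubiquitin ligase, at 7.45.

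**Figure D5:**
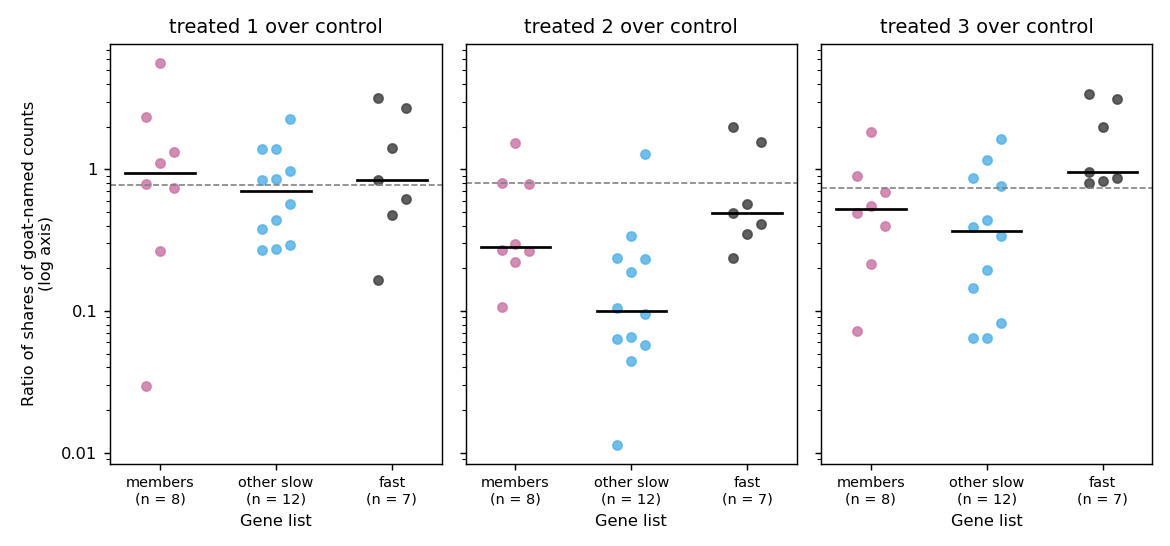
Ratio of goat-named shares, treated over control (log axis), of the 8 members, 12 other slow fibre-linked genes and 7 fast genes (without MYH4) in each treated library, with a short bar at the median of each list and a dashed line at the median goat gene (0.778, 0.796 and 0.738). The members include c8045_g1 under TNNC1, and CASQ2, at 0 counts in treated 2, is drawn with the pseudocount of 0.5. In treated 3 all 7 fast genes lie above the median goat gene, while 6 of 8 members lie below it.

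Ratios also differed by the length of what was assembled. Over all goat genes the median log2 ratio was 0.54, 0.59 and 0.51 in treated 1, 2 and 3 for genes under 1 kb of summed unigene length, and -0.14, 0.04 and -0.13 for 1 to 2 kb. It was -0.89, -1.05 and -1.07 at 8 kb or more. MYL2 and TNNI1 belong to the shortest class and lay under its median in all 3 libraries. MYL3, TNNT1, TNNC1 and MYOZ2 belong to the class of 1 to 2 kb, and TPM3 and MYH7B to the longest, where both lay above the class median in treated 1 and 3. The part of length in the members' ratios was not tested.

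Fitted over all 6340 goat genes with edgeR's quasi-likelihood test, no gene passed an adjusted p of 0.05 (0% called in either direction). DESeq2 called 3 genes at that adjusted p. In the edgeR fit 546 genes had an unadjusted p under 0.05. The lone control is assumed there to vary like the treated libraries, whose sampling days the labels do not give. MYL3 had a log2 fold change of -3.28 ± 0.89 (SE, edgeR adjusted p = 0.447) and MYL2 one of -1.75 ± 0.69 (edgeR adjusted p = 0.529). They were the members with an unadjusted p under 0.05, at 0.00473 and 0.0299 in edgeR, and each was lower in 3 of 3 treated libraries. Slow myosin (LOC102181869) stood at -2.81 ± 0.79 (edgeR adjusted p = 0.458). The other members ran from -0.73 for TNNI1 to 1.62 for MYH7B. Without treated 2, the library with 133809 goat-named counts, 178 genes were called, MYL3 among them at -3.95 (edgeR adjusted p = 0.000186, with a range of 0.000186 to 0.447 over the alternatives run). Leaving out treated 1 gave 24 calls and leaving out treated 3 gave 54, with no member among them. MYH7B was -0.08 without treated 1.

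The goat genes whose 3 ratios lay nearest to the summed members, among 1317 with at least 500 control counts, were RPL3L, HNRNPU, LOC102179358, ATP5L and TMEM147, at Euclidean distances of 0.22 to 0.32 on the log2 scale over the 3 treated libraries. Without c8045_g1 they were CREBBP, SAR1B, DTNA, EIF4G2 and LOC102179187, at 0.09 to 0.21. No gene was in both sets.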

How the data were processed

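Total RNA of 4 muscle samples was sequenced by the authors and assembled into unigenes, since counts are deposited per unigene with a table of unigene sequences and matches. FastQC 0.10.1 is named in the submitters' processing notes, and the assembler and counter are not given in the sources used here. The deposited values used were expected counts per unigene and per transcript, which were whole numbers, and, as an alternative, the authors' TPM. The deposited goat table gives the identity of each protein match in percent. Its rows without a gene name, 22.2% to 84.3% of each library's counts, were kept out of the goat-named total. The columns of FPKM were not used.

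Counts were summed per goat gene in Python 3.11.15 (pandas 2.3.3, scipy 1.17.1). Ratios are treated over control shares of goat-named counts, with a pseudocount of 0.5 for counts past the limits 0.6 and 3 and a filter on a mean of 20 counts. edgeR 4.0.16 (TMM) and DESeq2 1.42.0 were run in R 4.3.3, and the edgeR fit alone was tested on simulated data. Unigenes were placed along MYH9 with tblastx (BLAST 2.17.0, E-value 1e-05). All 8 gene names were found among the RefSeq symbols of goat. Named genes were the members, their fast counterparts, list genes on which a count of 5 or fewer turned, and the 5 nearest genes. ATP2A2, PLN, CA3, MB, the muscle markers and LOC102181869 were added after their values were seen. Members and lists were chosen with earlier results of these data known. Alternatives covered unigene choice, totals, limits, pairs, filters and left-out libraries. Whether the libraries stand for 1 animal each is not stated in the labels, so p-values measure the spread between these libraries.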

Additional observations from a re-analysis of the deposited data

How the results depend on the processing

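Of 88 alternative values of the main results, 69 stayed within the tolerance set for them (1 SD of the treated libraries for ratios, 1.5 times for counts). Of these, 2 lay on the other side of 0 from the summed share of goat-named counts, at -0.04 with the total outside mitochondrial, ribosomal and bacterial unigenes and -0.09 without treated 1. For the share of all counts the SD was 2.96, so -3.07 lay within the tolerance around -2.13. The transcript counts gave the same sums again, and counts of 0 members that stayed at 0 are included. The 69 are therefore no measure of how firm the results are. The mean log2 ratio of the members' share of goat-named counts over the 3 treated libraries was 0.08 (SD 0.33). It was -0.87 with an identity minimum of 90%, -0.47 with TPM, 0.46 with median ratio scaling and -0.94 without TNNC1. Alternatives chosen after seeing the data gave -0.86 without c8045_g1, -1.31 without c8045_g1 and with LOC102181869, and -2.04 with goat proteins that have no gene name in the total. Leaving out each treated library gave -0.09 to 0.24. The slow to fast ratio of -1.22 was -1.94 over 7 pairs and -0.97 to -1.36 with a library left out. On the scale of all counts 4 members were below 0.6 in treated 1, 8 in treated 2 and 4 in all 3 (MYL2, MYL3, TNNI1 and TPM3). With median ratio scaling 3 members were below 0.6 in treated 3, with limits 2 and 0.5 there were 2 above in treated 1, and with 1 library left out 2 to 5 were below 0.6 in all others. No member was above 3 in all 3 under any of these alternatives. The scale of all counts lowers every goat-named gene in treated 2, where goat-named counts were 1.82% against 71.3% in the control. No share of all goat genes was worked out for these alternatives, so their member counts have no background beside them.

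For edgeR's 0 calls, no filter gave 104, DESeq2 3, and leaving out treated 1, 2 or 3 gave 24, 178 and 54. MYL3 was called without the filter (-3.38) and without treated 2 (-3.95). Directions turned for MYH7B with 1 library left out (-0.08 without treated 1, up to 2.07), MYOZ2 likewise (0.16 without treated 2, 0.07 without treated 3, down to -1.15), TNNC1 with an identity of at least 90% (-0.02) and TNNT1 with totals only (-0.10). The cause was not tested. No paired analysis was possible because there was 1 control library. The pairs of MYH7 with MYH1 and MYH4 were not run, since MYH1 was not found by name and MYH4 held only c13776_g1. The 1.82% of goat-named counts in treated 2 limits what can be seen there, with MYL3 at 7 counts and MYH7B at 11.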
